A study of Mus musculus with 36 samples.

Results

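Wild-type mouse gut was compared between E14.5 and E12.5, stages counted in days of embryonic development. All libraries labelled WT at these stages were taken, 6 at E14.5 and 6 at E12.5, which is 12 of the 36 libraries of the series; the others are E10.5 gut, and gut labelled Ret Null. All embryos of both groups were C57BL/6J, and the labels name no treatment and no allele other than WT. Each stage held 3 libraries labelled female and 3 labelled male, made from RNA of dissected gut after selection of mRNA on oligo dT beads and sequenced from both ends. Values are FPKM, the authors' count of fragments relative to transcript length and to the depth of the library.

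Between these stages the gut tube turns from a simple tube with a pseudostratified lining into an organ with the first villi. Its endoderm, patterned by Cdx, Hnf4 and Gata factors, becomes a columnar epithelium that goes on to form absorptive enterocytes and secretory cells, while hedgehog ligands from the epithelium act on the mesenchyme beneath it. That mesenchyme forms smooth muscle, fibroblasts and serosa. Neural crest cells, which enter the foregut earlier and move tailward under the control of Ret and Ednrb, settle between the muscle layers as enteric neurons and glia, and macrophages from the yolk sac and fetal liver seed the wall.

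Depth went with stage. Judged from the widths of the authors' intervals, an E12.5 library held 26.1 to 34.7 M fragments and an E14.5 library 5.33 to 7.52 M, so low values are less precise at E14.5, and sequencing depth and stage cannot be told apart. E12.5 females 1 and 2 differed by little more than counting noise. Their spread over genes was 1.11 times that noise, with 0.998% of genes beyond 3 SD, against 1.77 to 2.6 times and 15.6 to 29% in the other pairs of a group. Their mean therefore stands for 1 sample, and the fit has 5 samples at E12.5 and 6 at E14.5. Both also carried Xist (49.1 and 52.2 FPKM), the RNA of the silenced X chromosome, together with the Y-linked Ddx3y (4.91 and 4.98 FPKM); E12.5 female 3 and the 3 E14.5 females held Ddx3y at 0 to 0.0133 FPKM. Nothing in the labels ties each library to its own embryo; the p-values below rest on the spread between samples, part or all of which may be technical. In the text, the 5 E12.5 values of a gene are given in the order females 1 and 2 averaged, female 3, male 1, male 2, male 3, and the 6 E14.5 values as the lowest, the median and the highest.

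The label gut held in every library: Epcam (epithelium) stood at 38.4 to 61.5 FPKM at E12.5 and 107 to 206 at E14.5, and the gut mesenchyme factors Foxf1 and Nkx2-3 stood at 29.1 to 47.6 and 10.4 to 26.5 FPKM at E14.5. The dissected pieces differed in what else they held. Barx1, a factor of stomach mesenchyme, was at 0.229 FPKM in E12.5 male 2 against 76.0 to 164 FPKM in the other E12.5 libraries, and that library had Myh11 (smooth muscle myosin) at 81.9 FPKM against 10.1 to 18.5 FPKM in the other samples. At E14.5, female 1 had Barx1 at 0.0858 FPKM and Alb (albumin, a liver protein) at 1014 FPKM against 0.988 to 23.4 FPKM in the others. E14.5 male 2 had Sftpc, a surfactant protein of lung, at 417 FPKM against 0 to 0.509 FPKM and Actc1 (cardiac actin) at 849.7 FPKM against 14.9 to 91.2 FPKM. On the log2(FPKM + 1) scale, the heart and striated muscle list averaged 1.03 to 5.13 at E14.5 and 0.504 to 1.04 at E12.5. The urogenital list averaged 2.41 in E14.5 female 1 and 1.61 in E14.5 female 3, against 0.472 to 0.910 at E12.5. Counts of some lists below are therefore also given without these 3 libraries, an alternative added after the data were seen. A list given without that count is not thereby unchanged. The pancreas list of 32 measured genes averaged 0.192 to 0.741 on the log2(FPKM + 1) scale in the E12.5 samples and 2.09 to 4.31 in the E14.5 samples, and 25 of its 27 tested genes were higher at E14.5; it is not described further here.

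**Figure D1:**
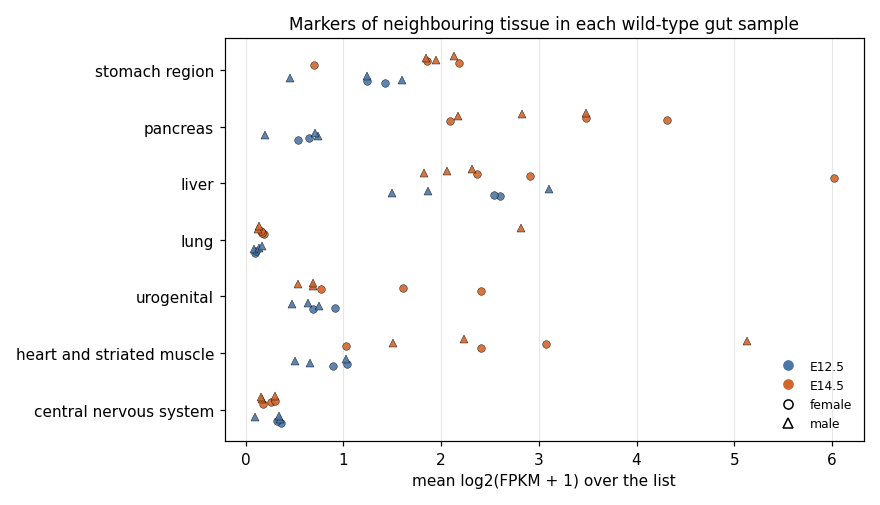
Mean log2(FPKM + 1) over marker lists of stomach and neighbouring tissues (horizontal axis) in each sample, circles female and triangles male, blue E12.5 and orange E14.5. One E14.5 female stands at 6.02 on the liver list, one E14.5 male at 2.82 on the lung list and 5.13 on the heart and striated muscle list, and the pancreas list is higher in every E14.5 sample than in any E12.5 sample.

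Genes were tested where they reached 1 FPKM in at least 3 samples and the authors marked their estimate as OK in every library; fold changes are on the log2(FPKM + 1) scale, which understates changes of low genes. Of 13827 genes tested with limma, 7516 (54.4%) differed between the stages at a Benjamini-Hochberg adjusted p under 0.05. Of all genes tested, 3998 (28.9%) were higher at E14.5 and 3518 (25.4%) lower. Differences of at least 2-fold ran mostly one way, with 927 genes (6.7%) higher and 81 (0.586%) lower. The median log2 fold change of all genes was 0.02. Under upper quartile scaling the median gene moved by -0.13 and the calls became 2969 higher and 5236 lower, so that 36.2% of the calls were higher against 53.2% in the values as deposited; small fold changes are therefore to be read against that shift. Without the 3 libraries that stood apart, 3769 of 13603 genes (27.7%) were higher and 3106 (22.8%) lower. Within females 4828 genes (34.9%) were called, from 2 E12.5 samples of which 1 is the pair that carried Ddx3y; without that pair the count was 2029, and without the other E12.5 female 2114. Within males 5258 genes (38%) were called, and 3492 without E12.5 male 3. The difference between the sexes in their stage effect was called for 1 gene, Snord22 (0.00723%), with 266 genes at an unadjusted p under 0.05. Called shares of the gene lists below are to be set against these percentages. A gene under 1 FPKM at 1 stage is tested only through its values at the other, so lists of low genes lean towards change. Where no member of a list is said to fall, or none to rise, none did so at an unadjusted p under 0.05 either (limma); under upper quartile scaling the exceptions were 2 Notch genes and 1 chemokine gene that fell. A bare number in parentheses after a gene, or after "rose by", is its log2 fold change, E14.5 minus E12.5.

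Among genes whose samples did not overlap, leaving out the pancreas list, the largest increase was that of Lypd8 (mm10 chromosome 11, 58379032 to 58390541), a glycoprotein that the colon secretes onto its surface. It stood at 0.644, 1.59, 1.51, 3.84 and 1.63 FPKM at E12.5 and at 67.6, 106 and 187 FPKM at E14.5 (log2 fold change 5.46 ± 0.31 (SE), adjusted p = 5.6e-06). Then came Tff3 (5.22), Cps1, the first enzyme of the urea cycle (4.95), Adamdec1, a protease of gut mesenchyme and macrophages (4.71), Muc13 (4.57), Prap1 (4.42) and Lgals4, a galectin of gut epithelium (4.34). The adult globin entries Hbb-b2 (4.14) and Beta-s (3.91), Spink4 (4.01), Fabp1 (3.99) and Ccl11 (3.71) were also among the 15 largest and are described below. Actc1 (3.7) was another, for which E14.5 male 2 was the highest. Dmbt1, a mucosal scavenger protein, rose by 3.9 and Krt4, a keratin of stratified epithelium, by 3.65; Krt4 lay at 0.261 to 34.9 FPKM in the E14.5 samples, lowest in female 1, where Barx1 was near 0. The largest decreases were in embryonic globins and in Hmga2, described below, followed by Fndc3c1 (-2.19), Hsd11b2, which inactivates glucocorticoids (-2.04), and the serum amyloid genes Saa2 (-2.03) and Saa1 (-1.92). Saa1 and Saa2 are close copies of each other, so their separate values are uncertain. The entry BC002163|1 (-2.08) bears a name used for more than 1 locus, and its reads may be shared with a copy. Rimklb (-1.43) and Tdh, a mitochondrial threonine dehydrogenase (-1.43), complete the decreases outside the lists that follow.

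**Figure D2:**
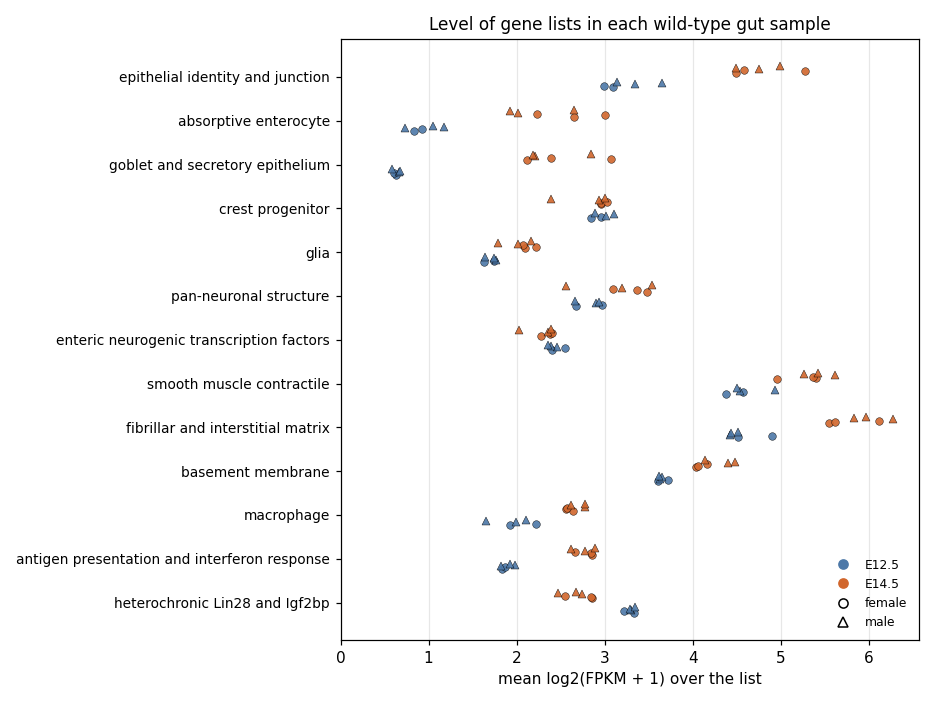
Mean log2(FPKM + 1) over gene lists (horizontal axis) in each sample, circles female and triangles male, blue E12.5 and orange E14.5. Levels of the crest progenitor, pan-neuronal and neurogenic factor lists overlap between the stages and those of the other 10 lists do not.

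Epithelial genes were higher at E14.5 almost throughout. Of 25 genes of epithelial identity and cell junctions, all measured and all tested, 24 rose, 20 of them at least 2-fold, and none fell; the list's median log2 fold change was 1.42 against 0.02 over all genes, and 21 of the 25 did not overlap between the stages, where 20.6% of all genes lay higher without overlap. The same 24 to 0 split was found without the 3 libraries that stood apart. In a bulk sample, more cells of a type and more RNA per cell cannot be told apart. E14.5 female 2, the highest sample on the pancreas list (4.31, mean log2(FPKM + 1)), was also the highest on this list (5.27). The same held for the enterocyte (3.01), goblet (3.07) and endoderm factor (3.24) lists below. How far pancreas in the dissected pieces adds to the epithelial rises was not tested. Leaving out the 3 E14.5 libraries richest in pancreas genes cannot settle it, because the E14.5 samples that remain also held such genes. Every E14.5 sample stood at 2.09 or more on the pancreas list, and no E12.5 sample stood above 0.741. Epcam, an adhesion molecule on all gut epithelial cells, stood at 41.9, 38.4, 51.1, 61.5 and 43.1 FPKM at E12.5 and 107, 123 and 206 FPKM at E14.5 (log2 fold change 1.57 ± 0.17 (SE), adjusted p = 8.8e-05), and every E14.5 sample lay above every E12.5 sample. Cdh1 (E-cadherin) rose by 1.82 and the tight junction proteins Cldn7 and Cldn3 by 2.04 and 2.13. Larger rises came from Cdh17 (liver-intestine cadherin, 3.38), the epithelial transcription factor Elf3 (2.5) and the keratin Krt19 (2.24). Cldn6, a claudin of embryonic epithelia, was the member not called (-0.19, 95% interval -0.5 to 0.11).

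Of 39 measured absorptive enterocyte genes, 30 passed the filter on low values; 28 of these were higher at E14.5, 26 at least 2-fold, and none was lower (median 1.83). The other 9, among them the disaccharidases Sis and Lct, had means under 1 FPKM at both stages. Members near 0 at E12.5, such as Alpi below, were tested only because of their E14.5 values. Of the 30 tested genes, 19 had a larger log2 fold change than Epcam and 15 a larger one than Cdh1. Fabp1, which binds fatty acids in enterocytes and liver, stood at 1.29, 1.65, 0.709, 1.04 and 1.81 FPKM at E12.5 and 15, 42.2 and 89.4 FPKM at E14.5 (log2 fold change 3.99 ± 0.39 (SE), adjusted p = 5.1e-05). Fabp2, its intestinal relative, stood at 0.433, 1.24, 0.648, 1.83 and 0.930 FPKM and then at 11.8, 18.4 and 41.8 FPKM (log2 fold change 3.45 ± 0.3 (SE), adjusted p = 3.2e-05). Both genes lay higher in every E14.5 sample than in any E12.5 sample, and E14.5 males 1 and 2 were the lowest of their stage for both. Vil1, the villin of brush border microvilli, stood at 1.41, 2.0, 1.4, 10.4 and 2.97 FPKM and then at 13.5, 24.3 and 38.6 FPKM (log2 fold change 2.8 ± 0.39 (SE), adjusted p = 0.0003); E12.5 male 2, the library with high Myh11 and low Barx1, was by far the highest at E12.5. Further rises were seen in the brush border protease Mep1a (2.54) and the lipid carrier Apoa4 (2.49). Rises a little above that of Epcam were found in the glucose transporter Slc5a1 (1.79) and the brush border peptidase Enpep (1.92). Apoc2 (0.84) and the glucose transporter Slc2a2 (-0.06) were not called; both are also made by liver, and E14.5 female 1, the library with high Alb, had their highest values (53.2 and 3.11 FPKM).

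The promoters of 3 of these genes are shown because they hold the letters bound by both factor families that rose with them, Cdx and Hnf4. The windows cover the 250 bases before the start in RefSeq's GRCm38.p6 annotation, 5′ to 3′ on the gene's strand, with matches to TTTATNG (Cdx) and CAAAGTNCA (Hnf4), on either strand, in capitals:
Fabp2, chr3:122894822-122895071, plus strand: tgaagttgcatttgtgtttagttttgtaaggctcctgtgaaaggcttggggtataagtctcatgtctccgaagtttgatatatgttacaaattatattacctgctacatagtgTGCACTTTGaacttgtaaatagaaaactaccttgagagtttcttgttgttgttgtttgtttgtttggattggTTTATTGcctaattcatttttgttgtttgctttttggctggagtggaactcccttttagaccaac
Alpi, chr1:87101607-87101856, minus strand: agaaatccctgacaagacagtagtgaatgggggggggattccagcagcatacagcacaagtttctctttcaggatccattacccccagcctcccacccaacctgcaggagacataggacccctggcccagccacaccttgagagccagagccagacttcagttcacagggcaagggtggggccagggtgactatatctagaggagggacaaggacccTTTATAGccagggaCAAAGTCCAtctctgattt
Rbp2, chr9:98490287-98490536, plus strand: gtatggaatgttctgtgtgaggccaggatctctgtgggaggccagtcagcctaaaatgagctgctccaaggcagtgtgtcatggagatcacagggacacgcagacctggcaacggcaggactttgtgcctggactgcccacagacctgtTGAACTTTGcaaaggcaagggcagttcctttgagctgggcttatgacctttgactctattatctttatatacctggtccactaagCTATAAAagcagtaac
Alpi, the intestinal alkaline phosphatase, stood at 0.0138, 0.00918, 0.0583, 0.0334 and 0.0368 FPKM at E12.5 and 1.54, 2.07 and 7.88 FPKM at E14.5 (log2 fold change 1.93 ± 0.33 (SE), adjusted p = 0.001). Rbp2, which carries retinol in enterocytes, stood at 0.572, 0.603, 0.893, 0.704 and 0.798 FPKM and then at 1.22, 3.93 and 9.76 FPKM (adjusted p = 0.012, limma). For both, as for Fabp2, every E14.5 sample lay above every E12.5 sample. The match nearest to the start lies 65 bases before it in Fabp2 (Cdx letters), 19 bases before it in Alpi (Hnf4 letters) and 16 bases before it in Rbp2 (Cdx letters). Read on the other strand, TTTATNG with A at the open base is CTATAAA, which overlaps the letters TATAAA of a TATA box. Of the 37 enterocyte and goblet genes that rose at least 2-fold, 26 matched a RefSeq entry. Cdx letters were found in any window of 8 of these 26 genes (30.8%), against 9.81% of 32851 single windows of all genes. Hnf4 letters were found in 5 genes (19.2%) against 1.19% of windows, and both in the same window in 3 (11.5%) against 0.143%. The member shares count genes and the others count windows. A gene may have more than 1 window, which can raise the member shares, so the shares are not strictly comparable. A match is a description of the sequence and no measure of binding.

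Of the goblet and secretory genes, all 15 tested of 19 measured members were higher at E14.5, 11 of them at least 2-fold (median 1.32). Members near 0 at E12.5 enter this count only if they are higher at E14.5, so the filter sets part of it. Tff3, a trefoil peptide secreted with mucus, stood at 0.722, 0.781, 1.16, 4.71 and 0.979 FPKM at E12.5 and 44.7, 78.6 and 175 FPKM at E14.5 (log2 fold change 5.22 ± 0.36 (SE), adjusted p = 1.3e-05), with E12.5 male 2 again the highest at its stage. Spink4, a goblet cell peptide (4.01), Guca2a (guanylin, 3.23), Fcgbp, a mucus-binding protein (2.68), and Tff1, a trefoil peptide of stomach surface cells (2.91), also rose. Muc2, the main mucin of goblet cells, did not pass the filter, with means of 0.221 FPKM at E12.5 and 0.442 FPKM at E14.5. Nor did Atoh1, the factor that commits cells to the secretory lineage, at 0.00856 and 0.919 FPKM.

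Of 22 tested transcription factors of gut endoderm (24 measured), 14 rose and none fell (median 0.92). Cdx1, an intestinal homeobox factor, stood at 0.0578, 0.0631, 0.0798, 0.621 and 0.101 FPKM at E12.5 and 5.53, 8.9 and 19.6 FPKM at E14.5 (log2 fold change 3.18 ± 0.28 (SE), adjusted p = 3.3e-05). Hnf4a, a nuclear receptor of endoderm, stood at 3.6, 3.11, 3.51, 7.78 and 4.01 FPKM and then at 12.3, 28.6 and 40.6 FPKM (log2 fold change 2.36 ± 0.29 (SE), adjusted p = 0.00017). Cdx2, which sets intestinal against gastric identity, stood at 3.12, 3.88, 2.87, 21.4 and 7.37 FPKM and then at 12.3, 24.3 and 38.3 FPKM (log2 fold change 1.83 ± 0.45 (SE), adjusted p = 0.0065). For Cdx1 and Hnf4a the stages did not overlap; for Cdx2 E12.5 male 2 lay among the E14.5 samples. Ehf, an epithelial Ets factor (2.14), Hnf4g (1.86) and Isx, an intestinal homeobox factor (1.69), rose as well. The pioneer factors Foxa1 (0.14) and Foxa2 (0.22), Gata4 (0.26), the duodenal and pancreatic factor Pdx1 (0.33) and Sox9 (0.34) were not called.

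Of 16 tested enteroendocrine genes, which include hormones, granule proteins and transcription factors, 7 rose and 2 fell (median 0.68). Without the 3 libraries that stood apart, 7 rose and 4 fell. Sct (secretin) stood at 1.34, 1.39, 1.81, 2.28 and 2.51 FPKM at E12.5 and 19.7, 33.3 and 52.8 FPKM at E14.5 (log2 fold change 3.56 ± 0.19 (SE), adjusted p = 4.1e-06), and all E14.5 samples lay above all E12.5 samples. Neurog3, which starts endocrine fate in gut and pancreas, rose by 2.41, and Ghrl (ghrelin) by 2.03; without the 3 E14.5 libraries richest in pancreas genes their log2 fold changes were 2.04, adjusted p = 0.001, and 1.41, adjusted p = 0.013, by limma. Cck fell, from 10.6, 8.76, 19, 9.47 and 6.68 FPKM to 1.22, 2.33 and 5.99 FPKM (log2 fold change -1.6 ± 0.33 (SE), adjusted p = 0.0026). Cck encodes cholecystokinin, a hormone of duodenal cells and a peptide of neurons. Gcg (-0.54) and Pyy (0.79) were not called, and both were near 0 in E12.5 male 2 (0.109 and 0.0423 FPKM). Chgb, a granule protein, was called (1.21), but E12.5 female 3 at 23.1 FPKM lay within the E14.5 range and the call was lost in 12 of 26 alternatives. Rfx6, an endocrine factor, was the other member that fell (-0.41, lost in 10 of 25 alternatives).

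Markers of epithelial progenitors and Wnt targets were mixed, with 8 of 17 tested higher and 3 lower (median 0.42). Cd44 (1.6), the ubiquitin ligase Rnf43 (1.37), the crypt factor Ascl2 (1.01) and the stem cell receptor Lgr5 (0.95) rose. Axin2, a general Wnt target, stood at 4.4, 4.93, 4.91, 4.79 and 4.44 FPKM at E12.5 and 5.89, 7.28 and 8.21 FPKM at E14.5 (log2 fold change 0.5 ± 0.07 (SE), adjusted p = 0.0004), a small difference with no overlap. Prom1 (-0.62), Bmi1 (-0.51) and Ephb3 (-0.35) fell. In the stomach list, 12 of 18 measured genes were tested, 6 rose and 1 fell, or 7 and 3 without the 3 libraries that stood apart. Barx1 was not called (log2 fold change -2.0 ± 1.29 (SE), adjusted p = 0.21); it was near 0 in 1 library of each stage, and the others held 76.0 to 164 FPKM at E12.5 and 11.9 to 27.5 FPKM at E14.5. Sox2, a foregut factor, was not called (-0.45). Cym (chymosin, a milk-clotting stomach protease) rose by 3.17, a call lost in 10 of 26 alternatives, and Cldn18 (stomach claudin) by 2.6; both were lowest at E14.5 in female 1.

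**Figure D3:**
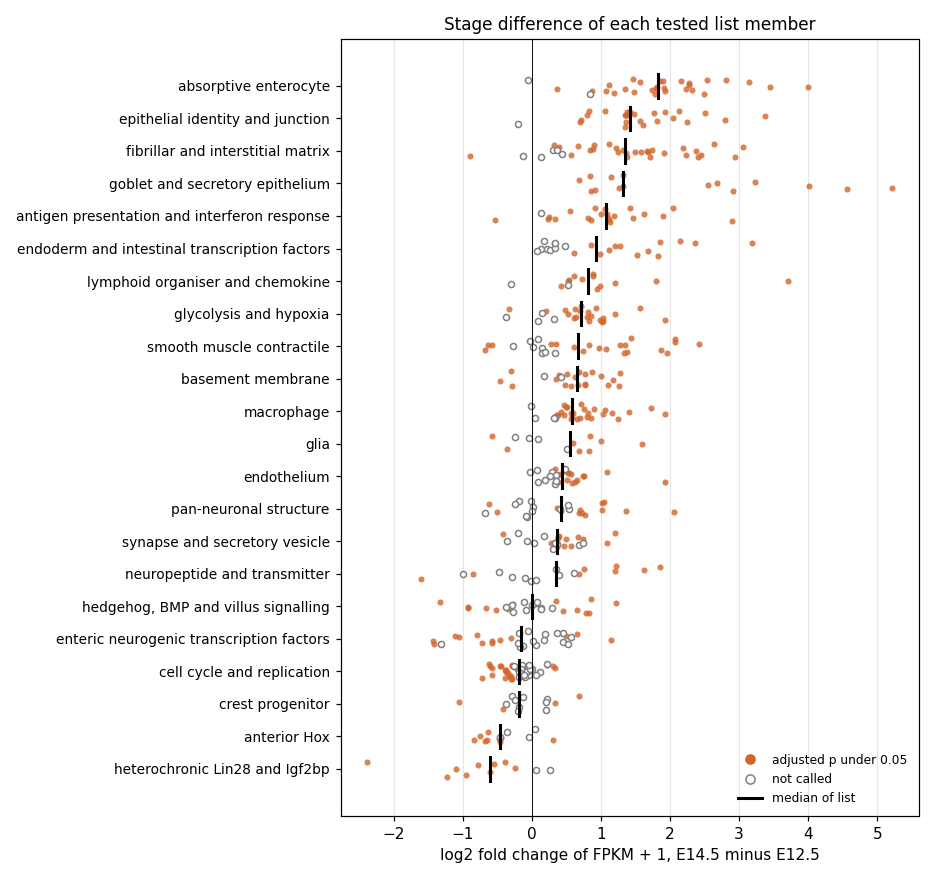
Log2 fold change of FPKM + 1 (E14.5 minus E12.5, horizontal axis) of each tested gene in 22 lists, ordered by list median (black bar); filled points have an adjusted p under 0.05 by limma. Medians run from 1.83 for absorptive enterocyte genes to -0.60 for the Lin28 and Igf2bp group.

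Signals between epithelium and mesenchyme did not move as a block. Among 25 hedgehog, BMP and villus signalling genes tested, 7 rose and 7 fell, 28% each, and the median was 0.00. These shares were near those of all genes tested, 28.9% higher and 25.4% lower. Under upper quartile scaling 5 rose and 9 fell. The ligand Shh was not called (-0.08), and Ihh rose by 0.83, a call lost in 10 of 26 alternatives. The receptor and target Ptch1 fell from 26.5, 24.9, 29.1, 33.7 and 25.8 FPKM to 15, 19.4 and 22.8 FPKM (log2 fold change -0.52 ± 0.11 (SE), adjusted p = 0.0024), and Gli3 fell (-0.93). Gli1, another hedgehog target, was not called (0.07, 95% interval -0.15 to 0.28). Foxf1, a hedgehog-dependent factor of gut mesenchyme, stood at 80.5, 58.6, 86.6, 88.8 and 83.8 FPKM and then at 29.1, 43.9 and 47.6 FPKM (log2 fold change -0.92 ± 0.11 (SE), adjusted p = 0.00016). Bmp2 (1.21) and the epithelial ligand Pdgfa (0.86) rose. The receptor of Pdgfa in the mesenchyme, Pdgfra, fell from 80.8, 67.4, 78.7, 52.3 and 68.2 FPKM to 20.4, 26.8 and 37.8 FPKM (log2 fold change -1.33 ± 0.15 (SE), adjusted p = 0.00012), with no overlap between the stages.

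**Figure D4:**
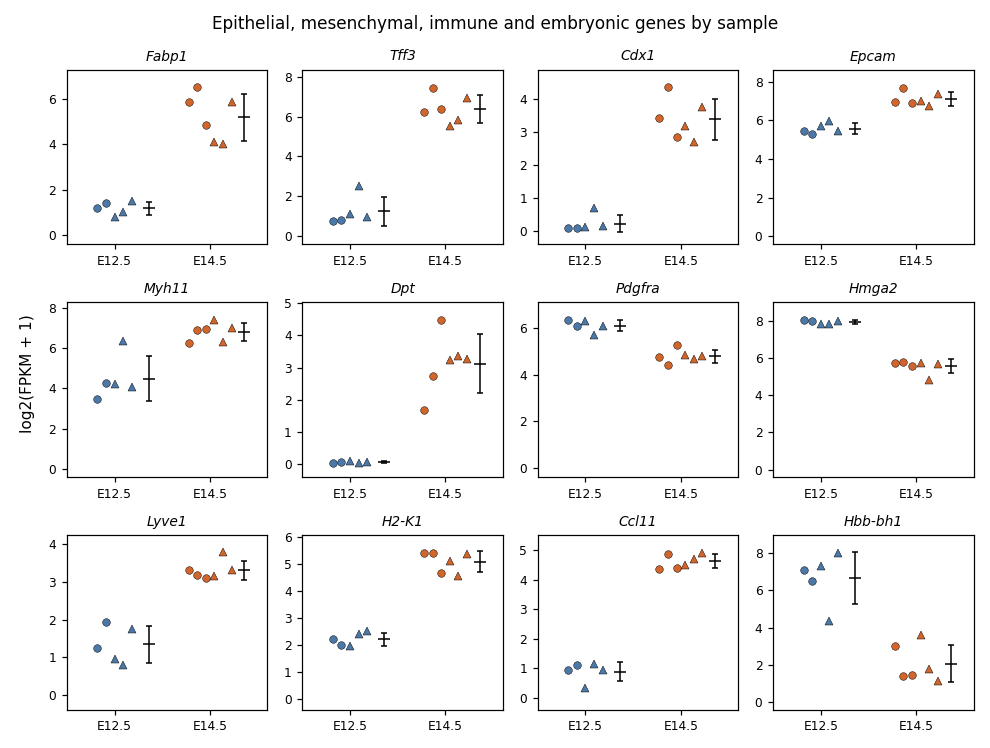
Log2(FPKM + 1) of 12 genes (vertical axes, starting just below 0) in each E12.5 (blue) and E14.5 (orange) sample, circles female and triangles male; the bar beside each group is the mean with its SD. Myh11 is the panel in which an E12.5 sample, male 2, reaches the E14.5 range.

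Crest progenitor genes were mostly not called between the stages. Of tested genes, 48% of the pan-neuronal list and 50% of the glial list rose, against 28.9% of all genes. The share was 35.3% for transmitters and peptides and 20% for receptors and channels, near that of all genes or below it. Of 13 tested crest progenitor genes, 2 rose and 2 fell (median -0.19, and 0.08 without the 3 libraries that stood apart). Ret, the GDNF receptor of crest cells, stood at 10.01, 8.89, 12.1, 13.3 and 10.1 FPKM at E12.5 and 4.7, 8.77 and 11.5 FPKM at E14.5; the stages overlapped and the difference was not called (log2 fold change -0.29 ± 0.17 (SE), adjusted p = 0.17). Sox10 (-0.24, 95% interval -0.75 to 0.27) was not called either. Ednrb, the endothelin receptor, was called higher (0.34), a call lost in 12 of 26 alternatives. Erbb3, a neuregulin receptor of crest and glia, rose by 0.69 and Foxd3, an early crest factor, fell (-0.42, lost in 4 of 25 alternatives). The member called with a change of at least 2-fold was Gfra1 (chromosome 19, 58236692 to 58454466), the co-receptor through which GDNF binds Ret. It fell from 28.6, 27.3, 33.9, 29.1 and 26.5 FPKM to 7.65, 14.3 and 16.9 FPKM (log2 fold change -1.06 ± 0.15 (SE), adjusted p = 0.00034), and no E14.5 sample reached the E12.5 range. E14.5 male 2, the library with lung and heart genes, was the lowest at its stage for Ret, Sox10 and Gfra1.

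Of 12 tested glial genes 6 rose and 2 fell (median 0.56). Entpd2, an ectonucleotidase of enteric glia, stood at 0.164, 0.248, 0.178, 0.0736 and 0.169 FPKM at E12.5 and 1.94, 2.47 and 4.17 FPKM at E14.5 (log2 fold change 1.6 ± 0.15 (SE), adjusted p = 4.1e-05). Mbp (1.0), a myelin protein gene with transcripts outside myelin, and the glial calcium-binding protein S100b (0.83) rose, while the cadherin Cdh19 (-0.57) fell. Gfap, a marker of mature glia, stayed below the filter.

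Pan-neuronal genes were higher in 12 of 25 tested cases and lower in 2 (median 0.43), or 11 and 4 under upper quartile scaling. Only 3 of the 25 lay higher without overlap, where 20.6% of all genes did. Within females 8 were called higher and within males 3. Prph (peripherin), an intermediate filament of peripheral neurons, stood at 3.41, 5.53, 5.48, 10.52 and 5.12 FPKM at E12.5 and 12.6, 30.2 and 36.8 FPKM at E14.5 (log2 fold change 2.06 ± 0.29 (SE), adjusted p = 0.00033), with no overlap. The microtubule proteins Mapt (1.36) and Stmn4 (1.04) and the intermediate filament Ina (1.01) rose. Tubb3, a neuronal tubulin, stood at 23, 28.2, 33.3, 44.2 and 24.3 FPKM and then at 20.1, 48.6 and 59.1 FPKM and was not called (log2 fold change 0.53 ± 0.27 (SE), adjusted p = 0.11); without the 3 libraries that stood apart it was higher (0.80, adjusted p = 0.0053, limma). Elavl4, an RNA-binding protein of neurons, was not called (-0.01, 95% interval -0.39 to 0.36), nor in that smaller set (0.23, adjusted p = 0.13). Elavl2 (-0.5) and Crmp1 (-0.62) fell, calls lost in 9 of 25 and 8 of 26 alternatives. Of the 24 other tested genes of the list, 9 had a larger log2 fold change than Tubb3; 17 of 24 others had a larger one than Elavl4. In the synapse and secretory vesicle list, 12 of 25 tested rose and 1 fell (median 0.37). Scg2, a granule protein (1.09), the prohormone convertase Pcsk1 (0.74) and Syn1 (synapsin, 0.67) rose; Snap25 (0.68) and Syt1 (0.18) were not called, and Sv2a fell (-0.42).

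Of 28 measured transmitter and peptide genes, 17 were tested, 6 rose and 2 fell (median 0.36). The share that rose, 35.3%, was near the 28.9% of all genes. Vip, the peptide of inhibitory motor neurons and secretomotor neurons, stood at 0.538, 0.544, 0.974, 0.467 and 0.485 FPKM at E12.5 and 2.32, 3.82 and 5.82 FPKM at E14.5 (log2 fold change 1.63 ± 0.19 (SE), adjusted p = 0.00014), without overlap. Npy stood at 0.928, 1.41, 0.858, 0.560 and 0.911 FPKM and then at 1.19, 4.64 and 24.7 FPKM (log2 fold change 1.85 ± 0.52 (SE), adjusted p = 0.013), highest in E14.5 female 1. Ache (1.22), which breaks down acetylcholine, the peptide gene Tac1 (1.21), the serotonin transporter Slc6a4 (0.76) and the vesicular acetylcholine transporter Slc18a3 (0.68) also rose. Falling members were Cck, given above, and Cartpt, which went from 10.3, 12.49, 17.2, 20.7 and 11.6 FPKM to 4.43, 7.34 and 8.47 FPKM (log2 fold change -0.85 ± 0.18 (SE), adjusted p = 0.0027). Nos1, the enzyme of nitrergic neurons, did not pass the filter, at means of 0.437 and 0.693 FPKM, nor did Chat at 0.248 and 0.466 FPKM. Gal, another peptide of enteric neurons, was not called (-0.48). Th (0.06) and Dbh (-0.99), enzymes of catecholamine synthesis, were not called. E14.5 female 1, also the highest sample on the urogenital list (2.41), had the highest values of all samples (14.9 and 18.9 FPKM). Among receptors and channels, 20 of 32 measured were tested, 4 rose and 3 fell (median 0.16); the largest rise was that of Gfra2, the neurturin co-receptor (1.17), opposite in sign to Gfra1. The acetylcholine receptor subunits Chrna3 (-0.04), Chrnb4 (0.23) and Chrna5 (0.04) were not called.

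Factors of neurogenesis were lower on balance, with 3 of 28 tested higher and 10 lower, 4 of these at least 2-fold (median -0.15). All 10 that fell lay below the E12.5 range in every E14.5 sample. Of all genes tested, 25.4% were called lower and 17.7% lay lower without overlap. Sox11, a factor of newly formed neurons that embryonic mesenchyme also makes, stood at 32.8, 28.1, 29, 29.5 and 32.7 FPKM at E12.5 and 8.95, 11.2 and 13.1 FPKM at E14.5 (log2 fold change -1.41 ± 0.08 (SE), adjusted p = 6.2e-06). Isl2 (-1.42), Meis2 (-1.11), Bnc2 (-1.06), Meis1 (-0.8) and Hand2 (-0.72) fell; Meis1, Meis2, Bnc2 and Hand2 are also made by gut mesenchyme. Casz1 (1.15), Phox2a (0.66, lost in 11 of 26 alternatives) and Tbx3 (0.5) rose. Without the 3 libraries that stood apart, 7 of 28 rose and 11 fell, and the median was 0.07. At E14.5, male 2 had the lowest level of this list (2.02, mean log2(FPKM + 1)) and of the crest progenitor list (2.39).

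**Figure D5:**
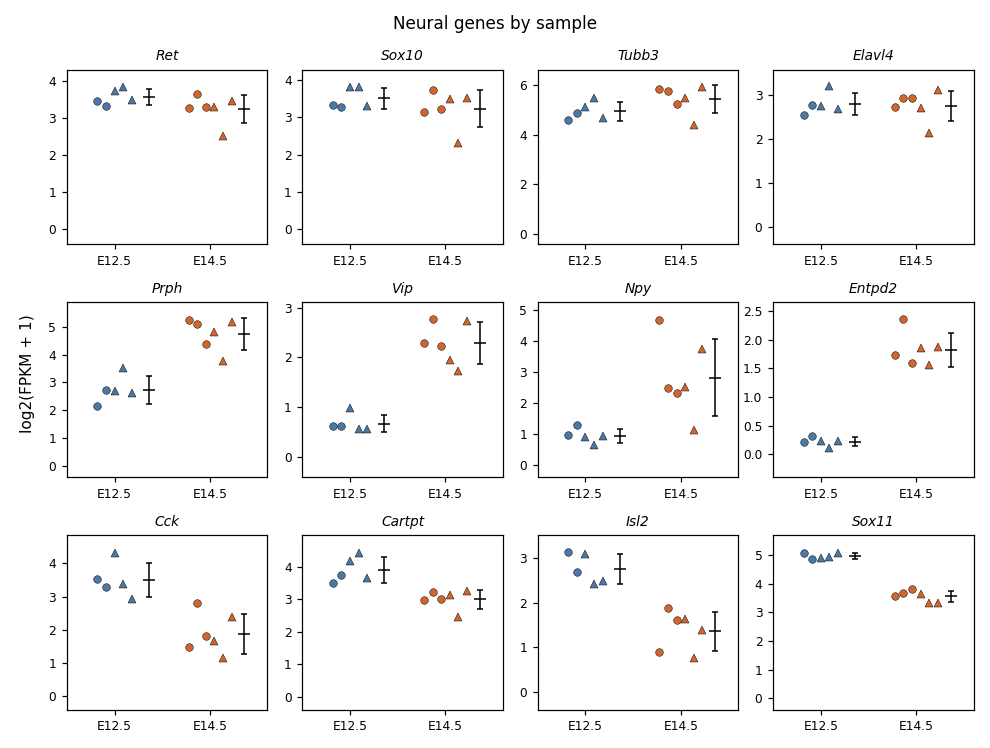
Log2(FPKM + 1) of 12 neural genes (vertical axes, starting just below 0) in each E12.5 (blue) and E14.5 (orange) sample, circles female and triangles male; the bar beside each group is the mean with its SD. Ret, Sox10, Tubb3, Elavl4 and Npy overlap between the stages, Prph, Vip and Entpd2 lie higher at E14.5 and Cck, Cartpt, Isl2 and Sox11 lower.

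Of 28 tested genes of the smooth muscle contractile apparatus, 17 were higher, 11 at least 2-fold, and 3 were lower (median 0.67); without the 3 libraries that stood apart, 1 of them set apart in part by its Myh11, 19 rose and 3 fell. Myh11, the smooth muscle myosin heavy chain, stood at 10.1, 18.5, 17.7, 81.9 and 15.7 FPKM at E12.5 and 75.6, 121 and 166 FPKM at E14.5 (log2 fold change 2.43 ± 0.42 (SE), adjusted p = 0.00098). E12.5 male 2 lay inside the E14.5 range. Actg2 (enteric smooth muscle actin) stood at 42.6, 67.5, 58.9, 212 and 61.3 FPKM and then at 185, 324 and 411 FPKM (log2 fold change 2.08 ± 0.36 (SE), adjusted p = 0.0011), and Acta2 rose by 1.07, a call lost without E12.5 females 1 and 2 and without the 3 E14.5 libraries richest in pancreas genes. Tagln (2.08), Cnn1 (calponin, 1.95) and Des (desmin, 1.88) rose too. The coactivator Myocd, which turns on these contractile genes, fell from 8.31, 9.0, 10.7, 18.4 and 11.5 FPKM to 4.74, 6.87 and 8.58 FPKM (log2 fold change -0.64 ± 0.17 (SE), adjusted p = 0.0097), and Pgm5 (-0.68) and Itga8 (-0.57) fell. In the list of interstitial cells of Cajal, the pacemaker cells of the gut, 2 of 13 rose and 4 fell (median -0.13), and 2 rose and 7 fell under upper quartile scaling. Kit, their receptor, was not called (-0.27), the chloride channel Ano1 fell (-0.45), and the Kit ligand Kitl rose (0.61).

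Of 34 genes of fibrillar and interstitial matrix, all tested, 28 rose, 21 at least 2-fold, and 1 fell (median 1.34); in 25 the E14.5 samples all lay above the E12.5 samples. Col1a1 (chromosome 11, 94936270 to 94951856), the main fibrillar collagen, stood at 111, 152, 126, 105 and 115 FPKM at E12.5 and 371, 530.4 and 1191 FPKM at E14.5 (log2 fold change 2.19 ± 0.27 (SE), adjusted p = 0.00016). Col3a1 rose by 1.25. Eln (elastin) stood at 16.2, 42.8, 9.54, 8.37 and 13.7 FPKM and then at 91.7, 133 and 223 FPKM (log2 fold change 2.94 ± 0.26 (SE), adjusted p = 3.8e-05), and Lox, which crosslinks collagen and elastin, rose by 2.64. Dpt (dermatopontin), which binds collagen and decorin, stood at 0.0264, 0.0544, 0.0644, 0.0295 and 0.0544 FPKM and then at 2.23, 8.47 and 21.4 FPKM (log2 fold change 3.06 ± 0.39 (SE), adjusted p = 0.00021). The microfibril collagens Col6a2 (2.45) and Col6a1 (2.38) and the matrix protein Thbs2 (2.41) also rose. The member that fell was Vcan (versican), a large proteoglycan of loose embryonic matrix, from 52.9, 57.7, 40.8, 53.3 and 49.1 FPKM to 21, 25.6 and 37.7 FPKM (log2 fold change -0.89 ± 0.15 (SE), adjusted p = 0.00071). Basement membrane genes rose in 17 of 22 tested cases and fell in 3 (median 0.65). Col4a1 (1.28) and Col4a2 (1.18), the collagens of all basement membranes, were among those that rose. Lama1, the laminin chain of early embryonic membranes (-0.47, lost in 5 of 25 alternatives), and Fras1 (-0.29) and Frem2 (-0.3), which link embryonic epithelium to mesenchyme, were the 3 that fell. In the mesothelium list 1 of 10 tested rose and 4 fell, or 3 and 4 without the 3 libraries that stood apart. Msln (mesothelin) rose by 2.02, whereas Bnc1, a mesothelial zinc finger factor, stood at 10.1, 8.79, 9.75, 8.74 and 10.1 FPKM and then at 2.07, 3.08 and 4.11 FPKM (log2 fold change -1.39 ± 0.13 (SE), adjusted p = 4.2e-05) and Aldh1a2, which makes retinoic acid, fell (-0.96). Wt1 was called lower (-0.42), a call lost in 14 of 26 alternatives.

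Of 32 tested macrophage genes 28 rose, 7 of them at least 2-fold, and none fell (median 0.58). Csf1r, the receptor macrophages depend on, stood at 5.74, 9.03, 6.86, 4.53 and 7.38 FPKM at E12.5 and 8.498, 10.45 and 13.3 FPKM at E14.5 (log2 fold change 0.58 ± 0.14 (SE), adjusted p = 0.0075); the stages overlapped. The complement genes C1qa (1.16), C1qc (1.07) and C1qb (0.86) rose. Lyz2 (lysozyme) stood at 5.72, 10.2, 6.67, 5.33 and 8.96 FPKM and then at 19.95, 27.6 and 34.2 FPKM (log2 fold change 1.73 ± 0.17 (SE), adjusted p = 5.9e-05). Lyve1, a hyaluronan receptor of tissue macrophages and lymphatic endothelium, stood at 1.37, 2.85, 0.940, 0.742 and 2.34 FPKM and then at 7.57, 8.52 and 12.8 FPKM (log2 fold change 1.93 ± 0.2 (SE), adjusted p = 7.1e-05), and neither gene overlapped between the stages. The lymphatic factor Prox1 was not called (0.09). Irf8, a factor of myeloid cells (1.03), and F13a1 (1.25) rose; Cx3cr1 (0.05), Pf4 (-0.01), Trem2 (0.34) and Ms4a7 (0.32) were the members not called. Within the list, 16 of 31 genes had a larger log2 fold change than Csf1r and 15 a smaller one.

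Of 28 measured antigen presentation and interferon response genes, 22 were tested. Of these, 20 were higher, 13 at least 2-fold, and 1 was lower (median 1.08). Members near 0 at E12.5 enter this count only through their E14.5 values, so the filter sets part of it. H2-K1 (chromosome 17, 33996012 to 34000333), a class I histocompatibility molecule, stood at 3.63, 2.97, 2.93, 4.32 and 4.71 FPKM at E12.5 and 22.5, 37 and 41.7 FPKM at E14.5 (log2 fold change 2.89 ± 0.19 (SE), adjusted p = 1.1e-05). H2-D1 (1.89) and B2m, the light chain they share (0.92), rose with it; H2-K1 and H2-D1 belong to a family of near copies, and reads may be shared among them. The class II gene H2-Aa, made by antigen-presenting cells, stood at 0.00821, 0.0223, 0.0348, 0.0319 and 0.0222 FPKM and then at 1.7, 2.0 and 2.96 FPKM (log2 fold change 1.63 ± 0.1 (SE), adjusted p = 8.1e-06), and Cd74, the class II invariant chain, rose by 2.04. Ifitm1 fell (-0.54, lost in 11 of 26 alternatives) and Xaf1 was not called (0.14). All values of H2-K1, H2-D1 and H2-Aa at E14.5 lay above those at E12.5, but H2-Aa passed the filter only through its E14.5 values.

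Chemokines and organisers of lymphoid tissue rose in 12 of 14 tested cases and fell in none (median 0.81). Ccl11 (eotaxin, chromosome 11, 82057832 to 82062955), which draws eosinophils, stood at 0.911, 1.15, 0.277, 1.21 and 0.907 FPKM at E12.5 and 19.6, 23.3 and 29 FPKM at E14.5 (log2 fold change 3.71 ± 0.16 (SE), adjusted p = 1.8e-06), with every E14.5 sample above every E12.5 sample. Cxcl14 (1.79), Ccl2 (1.2), Ccl25, a chemokine of small intestine (0.99), and the lymphotoxin receptor Ltbr (0.89) rose. Cxcl13, which draws lymphoid tissue inducer cells, was called (0.54), a call lost in 12 of 26 alternatives. Of 27 measured lymphoid genes only 10 passed the filter, 4 rose and 1 fell. Thy1 rose by 1.46; the T cell genes Cd3e, Cd3d and Cd3g had means of 0.00197 to 0.142 FPKM at both stages. In the granulocyte and mast cell list 5 of 9 tested rose. S100a8 (1.59) and S100a9 (1.36), calcium-binding proteins of neutrophils, and Tpsb2 (1.74) and Cpa3 (1.54), proteases of mast cells, were among them, with wide ranges at E14.5 (Tpsb2 0.334 to 13.1 FPKM); S100a9 lost its call in 7 of 26 alternatives and Cpa3 in 7 of 25. Mpo (myeloperoxidase) was not called (0.13).

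Endothelial genes were higher in 16 of 26 tested cases and lower in none (median 0.44). Without the 3 libraries that stood apart the median was 0.28, with 14 higher, and under upper quartile scaling 11 were higher. Within males 20 were called higher, and within females 5. The library with lung and heart genes, E14.5 male 2, had the highest level of the list (3.97, mean log2(FPKM + 1), against 3.24 as the lowest at E14.5), and its part in these rises was not tested beyond that. Pecam1, an adhesion molecule of all endothelium, stood at 21.9, 24.9, 19.6, 22.4 and 21.4 FPKM and then at 25.2, 29.6 and 46.6 FPKM (log2 fold change 0.48 ± 0.11 (SE), adjusted p = 0.0053). Eng (endoglin) rose by 1.09; Kdr, the main VEGF receptor, was not called (0.07).

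Of 18 tested red cell genes, 5 rose and 3 fell: embryonic globins were lower at E14.5 and adult beta globins higher. Hbb-bh1, an embryonic beta globin, stood at 134, 90.5, 158, 19.5 and 252 FPKM at E12.5 and 1.2, 2.08 and 11.3 FPKM at E14.5 (log2 fold change -4.6 ± 0.69 (SE), adjusted p = 0.00048). Hbb-y (-3.69) and Hba-x, the embryonic alpha globin (-3.51), fell too. The adult beta globin entries Hbb-b2 (4.14), Beta-s (3.91) and Hbb-b1 (2.86) rose. Hbb-b2 went from 219.6, 177, 88.1, 219 and 298 FPKM to 1354, 3099 and 9239 FPKM. The beta globin genes lie side by side on chromosome 7 and are near copies, so their separate values are uncertain, whereas embryonic and adult members moved in opposite directions. Erythroid genes of immature cells, Klf1 (0.41) and Gata1 (0.17), were not called, and E14.5 female 1, the library with high Alb, stood far above all other samples for each (34.4 and 17.8 FPKM).

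Of 45 cell cycle genes, all tested, 3 rose and 21 fell, none of them by 2-fold (median -0.18); under upper quartile scaling 1 rose and 33 fell, and without the 3 libraries that stood apart 1 rose and 27 fell. Mki67, present in all cycling cells, stood at 55.9, 52.1, 48.6, 48.7 and 53 FPKM at E12.5 and 34.2, 51.2 and 55.9 FPKM at E14.5 and was not called (log2 fold change -0.16 ± 0.13 (SE), adjusted p = 0.33). The ribonucleotide reductase subunit Rrm2 (-0.72), Mcm4 of the replicative helicase (-0.6), Gins1 (-0.62), Bub1 (-0.58), Cenpe (-0.57) and Top2a (-0.37) fell. The 3 that rose were E2f1 (0.34), E2f8 (0.31) and Tk1 (0.21), of which E2f8 lost its call in 3 of 26 alternatives and Tk1 in 4.

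Genes of the Lin28 and let-7 developmental timing circuit fell. Of 15 measured members, 11 were tested, none rose and 9 fell (median -0.60), against 25.4% of all genes lower. Hmga2 (chromosome 10, 120361275 to 120476935), a chromatin protein of growing embryonic tissue, stood at 258, 248, 226, 226 and 255 FPKM at E12.5 and 27, 50.7 and 53.3 FPKM at E14.5 (log2 fold change -2.39 ± 0.15 (SE), adjusted p = 8.7e-06); all samples of E14.5 lay under those of E12.5, and the E12.5 samples differed little among themselves. Lin28b, which blocks maturation of let-7 microRNAs, stood at 2.79, 2.52, 1.97, 2.05 and 2.8 FPKM and then at 0.428, 0.488 and 1.51 FPKM (log2 fold change -1.09 ± 0.15 (SE), adjusted p = 0.00031). Sall4 (-1.22), Igf2bp1 (-0.95), the Polycomb subunit Cbx2 (-0.78), Igf2bp3 (-0.6) and Arid3b (-0.55) fell too, while Arid3a (0.26) and Nr6a1 (0.06) were not called. Lin28a did not pass the filter (means of 0.986 and 0.235 FPKM), and Hmga1 was left out because the authors' status was not OK in every library. Many of these genes are textbook let-7 targets and were listed for that reason. The mature sequences of 3 let-7 members in RefSeq's GRCm38.p6 annotation share the seed (bases 2 to 8, in capitals):
let-7a-5p: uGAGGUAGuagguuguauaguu
let-7c-5p: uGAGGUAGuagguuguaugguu
let-7g-5p: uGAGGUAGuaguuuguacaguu
The 3′ end of the Hmga2 mRNA (GENCODE, GRCm38) holds 4 matches to that seed, in capitals in the 4 target sites, listed from the end of the coding part onward:
Hmga2 site 1: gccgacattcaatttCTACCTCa
Hmga2 site 2: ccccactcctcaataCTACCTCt
Hmga2 site 3: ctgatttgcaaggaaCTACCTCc
Hmga2 site 4: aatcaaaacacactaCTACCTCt
Lin28b and Igf2bp1 also have 4 such matches and Nr6a1, which was not called, has 8, while Dnmt3b, which fell (-0.25, lost in 5 of 25 alternatives), has none. Over 21685 genes, 8.75% had at least 1 match (CTACCTC, transcript strand only) and 12 genes (0.0553%) had 4 or more, a count set after that of Hmga2 was seen. The 3′ ends of all genes had a median length of 920 bases, against 3017 in Hmga2, 4448 in Lin28b, 6340 in Igf2bp1 and 4460 in Nr6a1. Mature let-7 was not measured in these mRNA libraries, and a match is a description of sequence only.

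Imprinted growth genes were mixed, with 2 of 21 higher and 6 lower, or 1 and 9 under upper quartile scaling. The share that fell, 28.6%, was near the 25.4% of all genes, and 9.52% rose against 28.9%. Igf2, the fetal growth factor, was not called (0.15), and H19, its untranslated neighbour, rose by 0.73. Peg10 stood at 68.6, 79.4, 60.5, 42.6 and 65.4 FPKM at E12.5 and 14.3, 24.3 and 28.8 FPKM at E14.5 (log2 fold change -1.45 ± 0.18 (SE), adjusted p = 0.00016); Asb4 (-1.19), Peg3 (-1.07) and the growth inhibitor Grb10 (-0.71) fell. Dlk1, a Notch-like ligand of fetal tissue, was not called (0.19).

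Genes of glycolysis and of the response to low oxygen rose in 20 of 25 tested cases and fell in 1 (median 0.71). Pfkp, a phosphofructokinase, stood at 2.39, 2.67, 2.32, 2.77 and 2.3 FPKM at E12.5 and 9.7, 13.1 and 14.1 FPKM at E14.5 (log2 fold change 1.93 ± 0.09 (SE), adjusted p = 3.5e-06), with little spread at either stage. Car9, a carbonic anhydrase induced by low oxygen (1.56), the lactate exporter Slc16a3 (1.21), Aldoa (1.03) and Ldha (1.02) rose, and Hk2 fell (-0.33). Of 33 oxidative phosphorylation genes 15 rose and none fell (median 0.23), with 10 higher without the libraries that stood apart and 9 under upper quartile scaling.

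Genes of retinoid handling split, with 4 of 16 tested higher and 6 lower, or 6 and 7 without the 3 libraries that stood apart. Crabp2 (-1.76) and Crabp1 (-1.71), which bind retinoic acid in the cell, Stra6, a receptor for retinol uptake (-1.23), and Rarb, a receptor and target (-0.82), fell along with Aldh1a2. Adh1 (3.25), Aldh1a3 (1.52) and Rbp2, the enterocyte carrier, rose. Anterior Hox genes, which mark the head end of the gut and its crest cells, were lower in 8 of 13 tested cases (median -0.46). Hoxb5 was the 1 called higher (0.31), a call lost in 9 of 26 alternatives. Without the 3 libraries that stood apart 9 fell, and Hoxb5 lost its call. Hoxc5 (-0.84) and Hoxb4 (-0.68) were among the 5 that fell with no overlap between the stages, where 17.7% of all genes lay lower without overlap. None of 13 tested posterior Hox genes was called. Their mean level ran from 0.259 to 2.23 over the E12.5 samples, highest in male 2, and from 0.559 to 2.2 over the E14.5 samples (mean log2(FPKM + 1)). The ranges of the stages overlapped widely. The part of this spread in the anterior Hox values was not tested.

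Notch genes rose in 10 of 19 tested cases and none fell (median 0.36). Jag2, a ligand (1.08), the target Heyl (0.84) and the receptor Notch1 (0.74) led them; the target Hes1 was not called (0.11). Of 26 tested Wnt ligands, receptors and antagonists 7 rose and 5 fell (median 0.04), or 4 and 8 under upper quartile scaling. Dkk3 (1.14), Wnt4 (1.05) and the stem cell factor Rspo2 (0.75) rose. The inhibitor Sfrp1 (-0.83), Wnt5a, which lengthens the gut tube (-0.7), and Rspo3 (-0.61) fell.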

How the data were processed

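Poly(A) RNA of wild-type gut was measured in 12 libraries, 3 for each combination of stage and sex. The values are FPKM that the authors deposited per gene entry (23847 entries, 23361 names); TopHat2, Cufflinks, Cuffdiff and Picard are the tools, and mm10 the genome, per the submitters' processing notes, while settings, order and any scaling between libraries are not stated. The authors' lower and upper bounds were read to estimate depth, 26.1 to 34.7 M fragments at E12.5 and 5.33 to 7.52 M at E14.5. Of the libraries, E12.5 females 1 and 2 were averaged as 1 sample, by limits on their spread (1.2 times the noise and 1% of genes beyond 3 SD) set after the data were seen.

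Log2(FPKM + 1) was fitted with limma 3.58.1 in R 4.3.3 with a mean-variance trend and 4 means for stage and sex (residual df 7, prior df 2.86), and the stage difference is the mean of the female and male differences. Genes needed 1 FPKM in 3 samples and status OK in every library. P-values were adjusted by Benjamini-Hochberg over all genes tested, and calls have an adjusted p under 0.05. In simulated data with 13577 genes, 96% of genes changed by log2 1 in either direction and 98% of those changed by log2 2 were recovered. Of the calls there, 4.43% were false. The simulation changed 50 genes for each size and direction, none with a low mean, and used the same noise at both stages. The real data hold far more called genes, many low genes and lower depth at E14.5, so these rates may not carry over. Python 3.11.15 with pandas 2.3.3, numpy 2.4.6 and matplotlib 3.10.9 gave the tables and figures.

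Genes were named by a rule: the 15 largest rises and 15 largest falls among called genes whose stages did not overlap (pancreas, sex-linked and unnamed gene models left out), and in each of 44 lists the first 3 genes and up to 6 called members with the largest change. Further members, and those named as not called or not tested, were chosen after their values were seen, as were some genes of the plots. The members, the lists and the libraries left out were chosen with earlier results of these data known. Alternatives changed the pseudocount, filter, scaling, close pair, sex term, trend, weights, block and samples. Some named genes are not reported here.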

Additional observations from a re-analysis of the deposited data

Results flagged for a closer look

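In all, 12 of 86 list levels (mean log2(FPKM + 1) of a list in a sample) had a sample farther from the others of its stage than Dixon's 95% limit, which chance passes in about 1 of 20 groups. E12.5 male 2 was low on the enteroendocrine list (0.66) and the central nervous system list (0.0903), and high on the hedgehog, BMP and villus signalling list (4.14). E12.5 female 3 was high on the neuropeptide and transmitter list (1.46) and the fibrillar and interstitial matrix list (4.9). E14.5 female 1 was low on the stomach list (0.695) and high on the liver list (6.02). E14.5 male 2 was low on the lists of crest progenitors (2.39), synapse and secretory vesicle (1.84) and neurogenic transcription factors (2.02), and high on those of endothelium (3.97) and lung (2.82).

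The stage difference of Snord22, a small nucleolar RNA gene, differed between the sexes by -5.13 (male minus female, log2 scale; interaction in limma, adjusted p = 0.000278). It was listed at 0 in the 3 E14.5 males, at 34.8 to 38.7 FPKM in the E14.5 females and at 20.9 to 37.4 FPKM in the E12.5 samples. An estimate of 0 in these files can be a failed estimate.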

How the results depend on the processing

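Of 301 tested genes picked by the naming rule, 264 were called. Of these, 216 kept the call in each of 26 alternatives that tested them, 48 lost it in at least 1, and none changed sign. This set is not the same as the genes named above. Some of it is not reported, and further members named above, such as Crmp1 and Rfx6, are outside it. Calls given above without a count of losses were lost in 3 alternatives for Frem2 and Hk2, in 2 for Wnt5a, Rspo3 and Slc18a3, and in 1 for Cartpt, Ephb3, Gins1, Ina, Isx, S100a8, Tbx3 and Tpsb2. The count of 7516 genes ranged from 6121 (without E12.5 females 1 and 2) to 7651 (without E14.5 female 3) when 1 sample was left out, and came to 8126 with no filter, 5744 with a filter of 5 FPKM and 8616 in a fit of all 36 libraries. Within females the count was 2029 to 5135 with 1 sample left out (2029 without E12.5 females 1 and 2, 2114 without E12.5 female 3, where the lone sample is assumed to vary like the other groups) and 3113 without the 3 libraries richest in pancreas genes; within males it was 3492 (without E12.5 male 3) to 5510. The difference between the sexes was called for 1 to 4 genes with 1 sample left out, for 4 genes with no filter and for 5 without the pancreas-rich libraries; the cause was not tested. The replicate numbers did not pair the samples (correlations of same-numbered samples -0.123 to 0.155); with the replicate block and every library counted 8125 genes were called, against 8301 with every library counted and no block. Depth limits values below 1 FPKM, above all at E14.5.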

Other observations

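Of 798 entries with names of microRNAs and small nucleolar RNAs, 50 were tested; 2 were higher at E14.5 and 18 lower (limma, adjusted p under 0.05), where 28.9% of all genes tested were higher and 25.4% lower. Of the 50 tested entries, 11 were listed at 0 in every E14.5 sample and none in every E12.5 sample. Those 11 passed the filter only through their E12.5 values. Among all entries, 4974 to 5207 were listed at 0 per E12.5 library and 5984 to 6353 per E14.5 library. The difference between small RNA entries and other genes was not tested.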
